A study of Mus musculus with 12 samples.

Results

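The genes described here serve protein folding in the endoplasmic reticulum (ER) and the unfolded protein response (UPR), measured in 6 isolated populations of mouse small intestine cells. They were taken from a list of 40 genes chosen by name for this function, and 39 of them are measured, among 17097 genes with a probe set of a single gene symbol. Where a gene had several, the probe set of highest mean level was taken. Sec61g, the gamma subunit of the Sec61 channel, has no single-symbol probe set in the table used and is not analysed here. By role, the 39 genes are 12 chaperones and cofactors, 5 disulfide isomerases, 7 stress sensors and transcription factors, 6 degradation factors and 9 parts of the translocon and signal peptidase. Levels are log2 RMA values (RMA corrects background, normalizes the arrays and summarizes the probes of a set), and every difference below is on that log2 scale.

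The cells were untreated primary cells, divided into 3 gates for Mex3a, which encodes a protein that binds RNA, and into a high and a low gate for Lgr5, the receptor of crypt base stem cells. The Mex3a gates are high, low and negative. Each of the 6 populations, here named for its gates as Mex3a-high Lgr5-high and so on, came from 2 biological replicates, labelled MR793 and MR820, with 2000 cells per sample. Strain, genotype, reporter allele and age are not given in the labels used here, nor whether a replicate is an animal or a pool, so the p-values measure only the spread between these samples. Lgr5 RNA lay at 8.999 to 10.21 on the 6 Lgr5-high arrays and at 6.37 to 8.05 on the 6 Lgr5-low arrays, without overlap. Mex3a RNA did not separate the Mex3a gates: it lay at 5.57 to 6.35 on the Mex3a-high arrays and at 5.44 to 5.91 on the Mex3a-negative arrays. The 6.35 is of the MR793 array of Mex3a-high Lgr5-high, and the other Mex3a-high arrays reached 5.84. All Mex3a values lay below the median level of all genes (6.53), and dim genes have compressed differences. Whether this plays a part for Mex3a was not tested.

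Proteins that will be secreted or set in a membrane enter the ER through the Sec61 channel, lose their signal peptide, and fold with the help of chaperones and disulfide isomerases. When folding falls behind, the sensors Ern1 (IRE1 alpha), Eif2ak3 (PERK) and Atf6 start the UPR: Ern1 splices Xbp1 RNA, Eif2ak3 slows translation and favours Atf4 and then Ddit3 (CHOP), and Atf6 is cleaved to a transcription factor. In the intestine this machinery is best known from the secretory lineages, since Paneth and goblet cells export large amounts of protein, and Ern2 (IRE1 beta) is a form of the sensor found in gut epithelium. Array signals do not report Xbp1 splicing, Eif2ak3 phosphorylation or Atf6 cleavage.

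Some of these genes carry an ER stress response element (ERSE) in the promoter, the site through which Atf6 and Xbp1 act together with the factor NF-Y. RefSeq promoter sequences (GRCm38.p6, 250 bases before to 50 bases after the start) were at hand for 33 of the 40 listed genes. The ERSE was searched as CCAAT, any 9 bases, CCACG on both strands. It occurs in 9 of these 33 promoters (27.3%), against 39 of all 32851 promoter entries (0.119%). Since the genes were chosen by name for ER folding and the UPR, this share is not an independent result, and it was not tested. The sites are shown because 9 of these genes share this element, each read 5′ to 3′ on the strand where the match runs, with the fixed bases in capitals:
Calr: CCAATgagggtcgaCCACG
Canx: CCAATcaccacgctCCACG
Creld2: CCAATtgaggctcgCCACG
Derl3: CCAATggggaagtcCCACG
Dnajc3: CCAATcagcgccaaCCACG
Hsp90b1 (farther site): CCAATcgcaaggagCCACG
Hsp90b1 (nearer site): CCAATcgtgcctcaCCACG
Hspa5: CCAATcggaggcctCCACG
Pdia6: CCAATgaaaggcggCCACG
Syvn1: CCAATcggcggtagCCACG
Read along the gene, the Hspa5 site begins 65 bases before the start, and the others lie between 44 (Syvn1) and 212 (the farther of the 2 Hsp90b1 sites) bases before it. The spacer between the capitals differs from gene to gene. A shorter form, ERSE-II (ATTGG, any base, CCACG), occurs in the promoters of Dnajb11 and Herpud1, against 12 of all entries (0.0365%):
Dnajb11: ATTGGcCCACG
Herpud1: ATTGGgCCACG
The promoter of Hspa5, the gene for the chaperone BiP, holds its ERSE and, farther from the start, a match to TGACGTG followed by A or G (in 1.12% of all entries), a form of the UPR element. It is shown whole, at chr2:34771840-34772139 on the plus strand, with both matches in capitals:
Hspa5: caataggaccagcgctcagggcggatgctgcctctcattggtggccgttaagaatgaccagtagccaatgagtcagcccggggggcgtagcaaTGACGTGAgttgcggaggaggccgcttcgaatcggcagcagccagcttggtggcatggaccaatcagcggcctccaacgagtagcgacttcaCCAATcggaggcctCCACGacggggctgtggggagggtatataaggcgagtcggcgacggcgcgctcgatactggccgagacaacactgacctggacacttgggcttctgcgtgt
The Herpud1 promoter, at chr8:94386179-94386478 on the plus strand, is shown with its ERSE-II in capitals. It also holds TTGCATCA, in lower case here, a form of the element read by Atf4 with a partner and present in 0.895% of all entries:
Herpud1: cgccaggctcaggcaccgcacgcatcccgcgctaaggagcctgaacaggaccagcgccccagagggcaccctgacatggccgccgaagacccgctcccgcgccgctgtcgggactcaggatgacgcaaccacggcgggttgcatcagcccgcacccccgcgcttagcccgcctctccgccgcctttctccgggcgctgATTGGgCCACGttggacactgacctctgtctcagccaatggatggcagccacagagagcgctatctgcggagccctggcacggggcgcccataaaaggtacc
A match describes the letters only. Whether any factor bound there was not measured.

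The MR793 array of the Mex3a-high Lgr5-high population stood apart from the rest and is called the outlying array here. Most results that use this array are therefore given with and without it. Over all genes it correlated with the other 11 arrays at 0.892 to 0.914, against 0.966 to 0.996 among those 11. Of the 39 ER genes, 25 had their lowest and 8 their highest value on it, and their median difference from the mean of the other arrays was -0.81, against 0.15 for all genes. The 5′ minus 3′ difference of the actin control probe sets was 0.63 on it and 0.39 to 0.54 on the others. Igha, an antibody chain of plasma cells, was at 10.14 on it and at 6.42 to 7.70 elsewhere. Of the other plasma and B cell markers measured, all but Jchain and Pou2af1 were also highest on it. Among them were Fcrla at 7.43 (at most 6.75 elsewhere), Cd79a at 7.19 (6.62) and Tnfrsf17 at 6.43 (5.78). Jchain stayed at 4.00 to 4.28 and Pou2af1 at 4.14 to 4.29 on all 12 arrays. The rise was not limited to plasma and B cell markers. In Mex3a-high against Mex3a-negative Lgr5-high cells, T cell and macrophage markers had a median difference of 0.22, and -0.15 without this array. Mesenchymal and endothelial markers had 0.34 and -0.07, and plasma and B cell markers 0.21 and -0.04. Across genes, the residual SD had a median of 0.22 with this array and 0.12 without it.

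**Figure D1:**
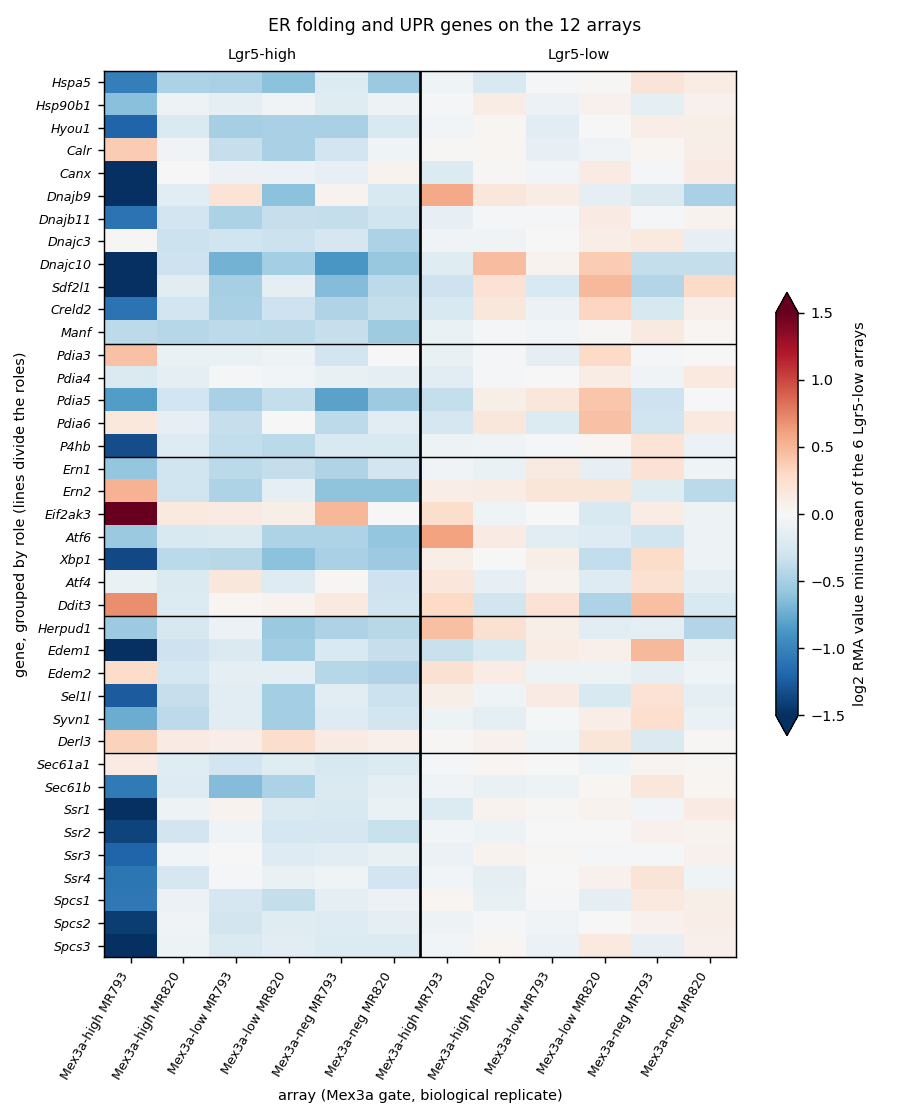
Each cell shows a gene's log2 RMA value on an array minus its mean over the 6 Lgr5-low arrays, with genes grouped by role in rows and the 12 arrays in columns (values beyond the ends of the colour scale take the end colour). The left 6 columns, Lgr5-high, are mostly blue, and the first column, the outlying array, is the most extreme for 25 genes in the low direction and for 8 in the high direction.

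Lgr5-high against Lgr5-low was the comparison in which an ER gene passed the test, and it sets cells with much of the stem cell receptor against cells with little of it. Averaged over the 3 Mex3a gates, 36 of the 39 genes had a lower mean in Lgr5-high cells, with a median difference of -0.38, while the median of all genes was 0.04 and 41.8% of them were lower. The differences were small, at most 1.73-fold (Dnajc10, which reduces misfolded proteins). At a limma adjusted p under 0.05 (Benjamini-Hochberg over all genes) 1 ER gene, Manf, was called, and it fell. The background was 1.38% of all genes called in either direction and 1.13% called lower. Without the outlying array, 37 of the 39 were lower, the median was -0.27 (all genes 0.01, 44.9% lower), and 12 ER genes were called, all of them lower, against 3.30% of all genes. With an unadjusted p under 0.05 the count was 18 ER genes (11.6% of all genes), and 24 without that array (20.3% of all genes).

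Each Lgr5-high array can be set beside the Lgr5-low array of the same Mex3a gate and replicate, which gives 6 pairs. Among the ER genes 24 were lower in Lgr5-high cells in all 6 pairs, against 6.95% of all genes. In the 5 pairs without the outlying array, 30 were lower in every pair, against 8.64%. For 9 ER genes (Hyou1, Dnajb11, Creld2, Manf, P4hb, Ern1, Xbp1, Syvn1 and Sec61b) all 6 Lgr5-high arrays lay below all 6 Lgr5-low arrays, against 1.74% of all genes. Without that array 12 did so, with Dnajc3, Edem2 and Sec61a1 in addition, against 2.16%. The median over the ER genes was -0.49 in MR793 and -0.25 in MR820. By Mex3a gate it was -0.57 in Mex3a-high cells (-0.19 without the outlying array), -0.28 in the Mex3a-low gate and -0.28 in the Mex3a-negative gate. Over the alternatives run these medians ranged from -0.92 to -0.19, from -0.31 to -0.03 and from -0.31 to -0.12, in the same order.

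**Figure D2:**
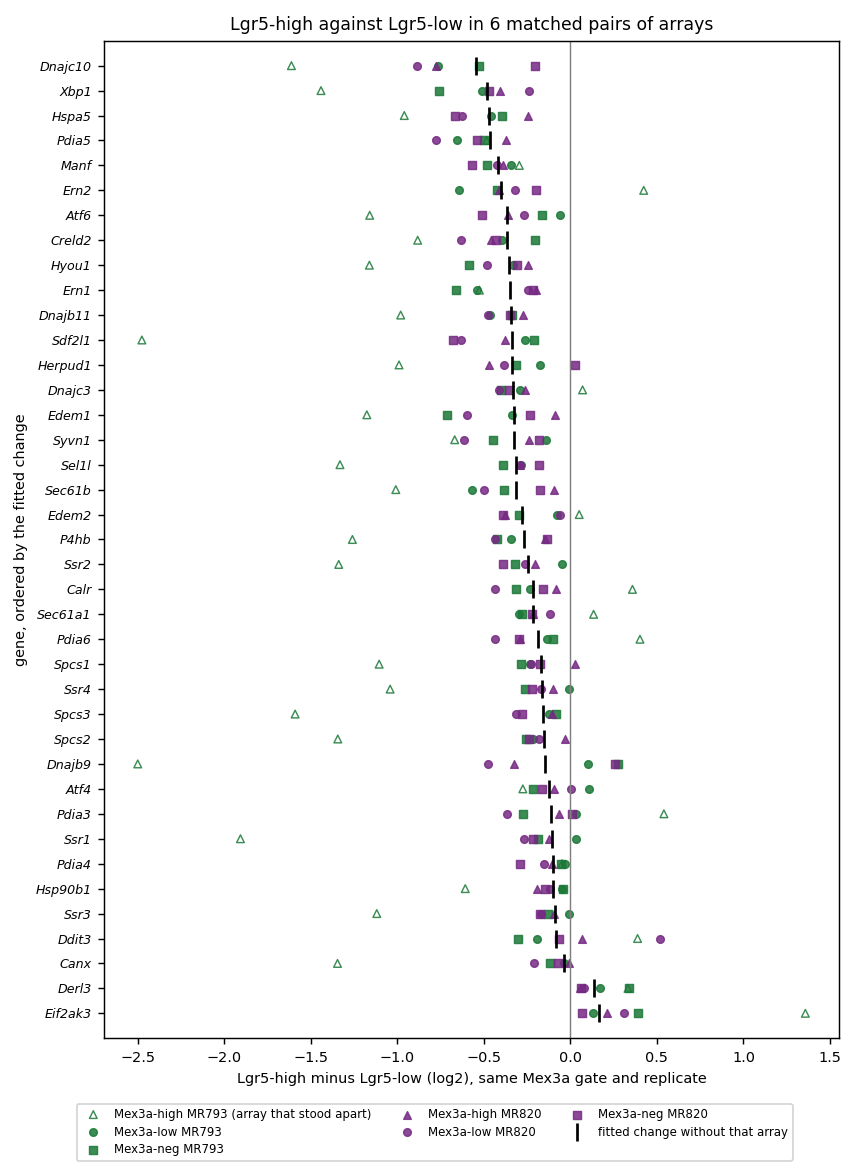
For each of the 39 genes, the points give the difference Lgr5-high minus Lgr5-low (log2, horizontal axis) in the 6 pairs of arrays of the same Mex3a gate and replicate, and the bar gives the fitted difference without the outlying array. The bars run from -0.55 for Dnajc10 to 0.16 for Eif2ak3, and the open triangles of the outlying array lie far from the other points for many genes.

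The array strip moves with this comparison in part. In MR793 the Lgr5-high and Lgr5-low arrays lie on separate strips, so strip and Lgr5 gate cannot be told apart in that replicate. In MR820 the Mex3a-low and Mex3a-negative pairs also lie across strips. Only the Mex3a-high pair of MR820 shares a strip, so in every other pair strip and Lgr5 gate change together. With the strip as a block, no gene was called by limma among all 17097, the median of the ER genes was -0.16 and 31 of 39 were lower. On strip 2, which holds 2 arrays of each Lgr5 gate, the median of the ER genes was -0.23 with 36 of 39 lower, while all genes had a median of 0.00 with 50% lower. These arrays are not matched for Mex3a gate. The Lgr5-high ones are Mex3a-high and Mex3a-negative, and the Lgr5-low ones Mex3a-high and Mex3a-low. The Mex3a-high pair of MR820, both arrays on that strip, gave a median of -0.20 with 35 of 39 lower.

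Among the chaperones all 12 had a lower mean in Lgr5-high cells, with a median of -0.46 (-0.34 without the outlying array), and 9 were lower in all 6 pairs. Manf, a secreted ER protein that binds BiP and protects cells under ER stress, had the smallest p of the 39. It lay at 10.54 to 10.73 (median 10.67) on the Lgr5-high arrays and at 10.97 to 11.21 (median 11.07) on the Lgr5-low arrays. The groups did not overlap, and the outlying array, at 10.68, was not extreme for this gene. Manf fell by 0.42 ± 0.08 (SE), 1.33-fold, with a limma adjusted p of 0.0336, and by 0.42 with an adjusted p of 0.00363 without that array. It was lower in 6 of 6 pairs, by 0.30 to 0.57. The call was lost when any of the 10 arrays outside the Mex3a-high Lgr5-high population was left out (adjusted p 0.0513 to 0.152), with quantile normalization again (0.0643), with array weights (0.265) and with the strip as a block (1.00, difference -0.53).

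Hspa5 encodes BiP, the main Hsp70 chaperone of the ER and the classic readout of the UPR. On the Lgr5-high arrays it lay at 9.34 to 10.16 (median 9.84) and on the Lgr5-low arrays at 10.13 to 10.55 (median 10.35). The highest Lgr5-high value, of Mex3a-negative MR793, just passed the lowest Lgr5-low value, of Mex3a-high MR820. The difference was -0.56 ± 0.12, lower in 6 of 6 pairs, with a limma adjusted p of 0.0636, and -0.47 with an adjusted p of 0.0116 without the outlying array. With quantile normalization again it was called (-0.47, adjusted p 0.0287).

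Hsp90b1 (Grp94), the Hsp90 of the ER, carries a pair of ERSE sites and differed little. Its values were 11.48 to 12.06 (median 12.002) in Lgr5-high and 11.97 to 12.22 (median 12.13) in Lgr5-low cells, so the groups overlapped. The difference was -0.19 ± 0.10 (limma adjusted p 0.481), or -0.10 without the outlying array, where Hsp90b1 was at its lowest, though all 6 pairs were lower.

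The cochaperones around BiP gave a similar order of size. Hyou1 (Grp170), which exchanges the nucleotide of BiP, lay at 9.48 to 10.46 (median 10.19) in Lgr5-high and at 10.50 to 10.77 (median 10.69) in Lgr5-low cells. Its difference was -0.52 ± 0.16 (limma adjusted p 0.210) and -0.36 (0.0180) without the outlying array. Dnajb11 (ERdj3), which brings substrates to BiP, lay at 8.83 to 9.64 (median 9.58) and at 9.81 to 10.06 (median 9.92). It differed by -0.48 ± 0.14 (limma adjusted p 0.188) and by -0.34 (0.0167) without that array. In both genes the groups did not overlap, and the call depended on leaving that array out.

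Dnajc3 (p58IPK), a further partner of BiP, was an exception on the outlying array: at 9.53 there, it lay above the other Lgr5-high arrays (9.05 to 9.27) and within the Lgr5-low range (9.40 to 9.67). Its difference was -0.28 ± 0.11 (limma adjusted p 0.362), and -0.33 (0.0429) without that array, with 5 of 5 pairs lower. Dnajb9 (ERdj4), a target of Xbp1, was higher in 3 of 6 pairs. Calr, a lectin chaperone with an ERSE, was at its highest value, 11.52, on the outlying array and was lower in the 5 other pairs, with a difference of -0.22 without that array (limma adjusted p 0.0705). Canx, its membrane-bound relative, differed by -0.04 without that array (adjusted p 0.783), the smallest difference among the chaperones.

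Creld2 and Sdf2l1 are small ER proteins known to rise with ER stress. Creld2 lay at 9.88 to 10.70 (median 10.59) in Lgr5-high and at 10.75 to 11.31 (median 10.98) in Lgr5-low cells, without overlap. It differed by -0.50 ± 0.16, lower in 6 of 6 pairs, with a limma adjusted p of 0.238, and by -0.36 (0.0991) without the outlying array. Sdf2l1 lay at 7.42 to 10.06 (median 9.76) and at 9.77 to 10.69 (median 10.20). The value of 7.42 came from the outlying array, and the next lowest was 9.56. The difference of -0.77 ± 0.39 (limma adjusted p 0.471) became -0.34 (0.355) without it.

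The disulfide isomerases, which form and rearrange disulfide bonds, had a lower mean in Lgr5-high cells in 5 of 5 genes, with a median of -0.14 (-0.19 without the outlying array). Pdia5 lay at 6.61 to 7.16 (median 6.93) in Lgr5-high and at 7.09 to 7.87 (median 7.49) in Lgr5-low cells, with a small overlap. It differed by -0.55 ± 0.15, lower in 6 of 6 pairs, with a limma adjusted p of 0.134. With the replicate as a block, which uses the pairing, Pdia5 was called (adjusted p 0.0333), and without the outlying array it was not (0.0538). P4hb (PDI), the most studied enzyme of the family, differed by -0.46 ± 0.17 (adjusted p 0.326) and by -0.27 (0.0303) without that array, with no overlap in either case. Pdia3, Pdia4 and Pdia6 differed by -0.11, -0.10 and -0.19 without that array, and none passed the test.

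Of the 7 sensors and transcription factors, 5 had a lower mean in Lgr5-high cells, and 6 without the outlying array. In the Ern1 and Xbp1 branch both genes separated the gates. Over the alternatives run, their difference between the gates ranged from -0.45 to -0.15 for Ern1 and from -0.82 to -0.16 for Xbp1. Ern1 lay at 7.35 to 7.65 (median 7.55) in Lgr5-high and at 7.81 to 8.15 (median 7.87) in Lgr5-low cells, without overlap. The difference was -0.40 ± 0.11 (limma adjusted p 0.184) and -0.35 (0.0565) without that array. Xbp1 lay at 8.09 to 9.04 (median 8.94) and at 9.08 to 9.72 (median 9.49), again without overlap. It differed by -0.64 ± 0.17, lower in 6 of 6 pairs, with a limma adjusted p of 0.153, and by -0.48 (0.0366) without that array.

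Ern2 is given by population. In Lgr5-high cells it lay at 8.70 and 7.88 in the Mex3a-high population (MR793 first), 7.72 and 8.04 in Mex3a-low and 7.57 and 7.57 in Mex3a-negative. In Lgr5-low cells it lay at 8.28 and 8.29, at 8.36 and 8.36, and at 7.99 and 7.77 in the same order. The array that stood apart gave the highest value of all, and without it the Mex3a-negative arrays were the lowest in the Lgr5-high gate and also in the Lgr5-low gate. Between the Lgr5 gates Ern2 differed by -0.26 ± 0.15 (limma adjusted p 0.505), and by -0.40 (0.0303) with 5 of 5 pairs lower without that array.

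Atf6, a dim gene below the median level of all genes (6.53), lay at 5.33 to 5.69 (median 5.45) in Lgr5-high and at 5.61 to 6.52 (median 5.80) in Lgr5-low cells. The groups overlapped slightly, all 6 pairs were lower, and the difference was -0.42 ± 0.11 (limma adjusted p 0.149) or -0.37 (0.0763) without the outlying array. Its own targets in the list, such as Hspa5 and Creld2, are given above.

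In the Eif2ak3 branch, Eif2ak3 and Ddit3 had a higher and Atf4 a lower mean in Lgr5-high cells, and none was called. Eif2ak3, also dim, lay at 5.43 to 7.06 (median 5.57) in Lgr5-high and at 5.22 to 5.71 (median 5.40) in Lgr5-low cells. It was higher in 6 of 6 pairs, with a difference of 0.41 ± 0.23 (limma adjusted p 0.489) that became 0.16 (0.443) without the outlying array, which gave the value of 7.06. With the strip as a block its sign turned, to -0.07. The other Eif2ak3 probe sets, also dim, gave 0.12 and -0.11, and 0.01 and -0.07 without the outlying array. Atf4, the transcription factor whose translation this branch favours, lay at 9.11 to 9.58 (median 9.27) and at 9.22 to 9.65 (median 9.38). Its difference was -0.11 ± 0.13 (limma adjusted p 0.677), with 4 of 6 pairs lower, and it turned to 0.19 when the probe sets of the gene were averaged. Ddit3, which acts after Atf4 and is linked to cell death under lasting stress, lay at 8.01 to 9.002 (median 8.35) and at 7.85 to 8.76 (median 8.30). It differed by 0.07 ± 0.22 (limma adjusted p 0.875), lower in 3 of 6 pairs, and by -0.08 without the outlying array.

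**Figure D3:**
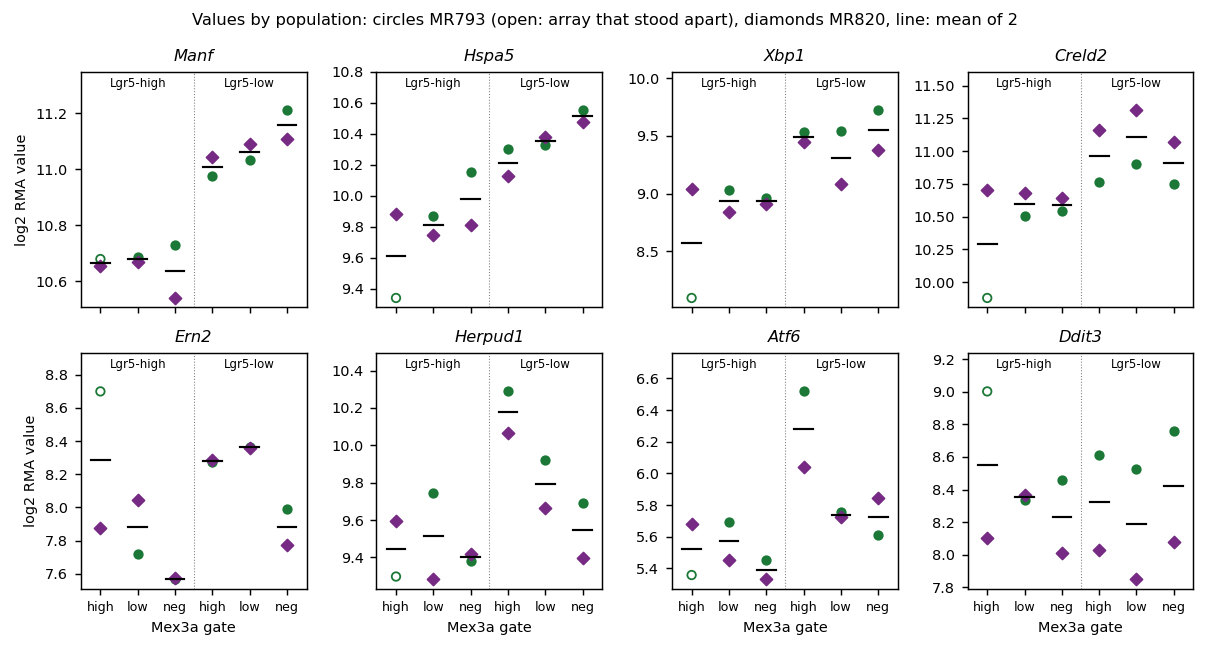
Log2 RMA values of 8 genes in the 6 populations, with circles for MR793 (open for the outlying array), diamonds for MR820 and a line at the mean of the 2 arrays. Manf, Xbp1 and Creld2 lie lower on every Lgr5-high array than on any Lgr5-low array, Herpud1 and Atf6 are highest in the Mex3a-high Lgr5-low population, and Ddit3 is higher in MR793 than in MR820 in all populations except Mex3a-low Lgr5-high.

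In ER-associated degradation, which returns misfolded proteins to the cytosol, 5 of 6 genes had a lower mean in Lgr5-high cells, with a median of -0.38 (-0.32 without the outlying array). Syvn1 (Hrd1), the ubiquitin ligase at its core, lay at 7.62 to 8.20 (median 8.03) in Lgr5-high and at 8.21 to 8.61 (median 8.31) in Lgr5-low cells. It differed by -0.38 ± 0.12 with a limma adjusted p of 0.257, and by -0.32 (0.105) without that array, and the groups touched without overlapping. Its partner Sel1l differed by -0.46 ± 0.17 (adjusted p 0.314), or -0.31 (0.138). Edem2, which trims mannose from misfolded glycoproteins, was the only gene of this group called without that array, at -0.28 (0.0221). Derl3, a derlin of the exit channel with an ERSE, went the other way. It lay at 6.37 to 6.64 (median 6.42) in Lgr5-high and at 6.08 to 6.48 (median 6.31) in Lgr5-low cells, higher in 6 of 6 pairs, with a difference of 0.17 ± 0.10 (limma adjusted p 0.511). That difference was 0.13 (0.391) without the outlying array and -0.02 with the strip as a block.

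All 9 genes of the translocon and signal peptidase had a lower mean in Lgr5-high cells, with a median of -0.38 that became -0.16 without the outlying array. Of the 5 roles, the median of this one moved most with that array: Ssr1, a subunit of the translocon-associated complex, was at 9.15 on it and at 11.04 to 11.38 elsewhere. Called without it were Sec61b at -0.31 (limma adjusted p 0.0230), Sec61a1 at -0.21 (0.0234) and Ssr2 at -0.24 (0.0425). Sec61b and Sec61a1 are the beta and alpha subunits of the channel itself. The signal peptidase subunits Spcs1, Spcs2 and Spcs3 differed by -0.17, -0.15 and -0.16 without that array and were not called.

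Genes with and without an ERSE can be set side by side in this comparison. With an ERSE, the median difference without the outlying array was -0.22 over 9 genes, 8 of them lower, while the 23 measured genes with a promoter entry and no ERSE had a median of -0.27. The ERSE genes ran from -0.47 for Hspa5, whose promoter is printed above, to 0.13 for Derl3. The difference between these groups was not tested.

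The probe sets of a gene gave the same direction in most cases. For 23 of the 39 genes 43 further single-symbol probe sets exist, and 38 of them had the sign of the probe set used, in the difference between the Lgr5 gates without the outlying array. All 32 further probe sets above the median level of genes had the same sign.

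Cell type markers also moved between the Lgr5 gates, and their part in the differences above was not tested. In bulk samples, fewer cells of a type and less RNA per cell cannot be told apart. Of 13 goblet markers measured (16 listed), 4 were called lower in Lgr5-high cells (Guca2a, Agr2, Tff3 and Fcgbp), with a median of -0.70, and 8 were called lower, with a median of -0.67, without the outlying array. Their summed level (log2 of the sum of unlogged values) lay at 13.50 to 14.23 over the Lgr5-high and at 14.48 to 15.24 over the Lgr5-low arrays, without overlap, and that array set neither end. Enteroendocrine markers had a median of -1.53 with 14 of 23 called lower (-1.45 and 18 without the outlying array), and tuft markers a median of -1.75 with 12 of 14 called lower (-1.77 and 14). The summed enteroendocrine level lay at 10.73 to 12.76 (to 12.01 without that array) in Lgr5-high and at 10.81 to 15.27 in Lgr5-low cells, and the summed tuft level at 9.74 to 11.58 (to 11.19) and at 9.76 to 14.48. Enterocyte markers had a median of -0.71 with 1 of 18 called lower (-0.70 and 2 without that array) and a summed level of 13.36 to 14.51, with or without it, and of 13.87 to 15.24. Stem cell markers had a median of 0.71 with 6 of 14 called higher, and of 0.90 with 10 called higher without that array. These stem cell markers include Lgr5 itself, for which the gates were set. Their summed level was 14.28 to 14.98 (from 14.79 without that array) in Lgr5-high and 13.85 to 14.49 in Lgr5-low cells. Paneth markers had a median of 0.45 with 1 of 11 called higher, and of 0.41 with 2 called higher and 1 lower without that array. Their summed level overlapped, at 13.91 to 15.40 (to 14.90 without that array) and at 13.43 to 15.37. RMA gives no value of 0, so a marker without signal still has a level.

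In the Mex3a-negative gate the marker lists differed unequally between Lgr5-high and Lgr5-low cells. Their median difference was 0.01 for enteroendocrine, -0.09 for tuft and -0.07 for enterocyte markers. It was -0.86 for goblet, 0.88 for Paneth and 1.02 for stem cell markers, each larger in size than the mean over the 3 Mex3a gates. The ER genes had a median of -0.28 there, with 36 of 39 lower (all genes 46.2%), and 34 lower in both replicates. None was called by limma (0% of all genes). With an unadjusted p under 0.05 there were 2 ER genes (2.17% of all genes). Once the outlying array, which enters here only through the spread, was left out, there were 18 (10.2% of all genes). The smallest p-values belonged to Manf at -0.52 ± 0.13 and Hspa5 at -0.53 ± 0.21, followed by Ern1 at -0.44 ± 0.20 and Pdia5 at -0.52 ± 0.25, all with an adjusted p of 1.00 (0.109 to 0.386 without the outlying array). In the Mex3a-low gate the 4 smallest were Manf at -0.38 ± 0.13, Pdia5 at -0.72 ± 0.25, Hspa5 at -0.54 ± 0.21 and Sec61b at -0.53 ± 0.25, again with an adjusted p of 1.00 (0.0888 to 0.200 without that array). The background called there was 0.0468% of all genes. With an unadjusted p under 0.05 there were 3 ER genes (2.98% of all genes), and 18 (12.2% of all genes) without that array. Manf, Hspa5 and Pdia5 were lower in both replicates in both of these gates.

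In the Mex3a-high gate the same comparison rested on the outlying array for its size. No ER gene was called by limma, against 1.37% of all genes, and 15 had an unadjusted p under 0.05, against 12.5% of all genes (6 without that array, against 13.4%). Atf6 differed by -0.76 ± 0.20 (adjusted p 0.149), with -1.16 in MR793 and -0.36 in MR820. Herpud1 differed by -0.73 ± 0.22 (adjusted p 0.232), Xbp1 by -0.92 ± 0.30 (0.289) and Hspa5 by -0.60 ± 0.21 (0.323). Without that array these became -0.60, -0.58, -0.45 and -0.33, with adjusted p-values of 0.218 to 0.401.

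The Mex3a gates were compared within each Lgr5 gate. Among Lgr5-low cells, Mex3a-high against Mex3a-negative had the most calls of the 11 comparisons made here, 1.73% of all genes, and no ER gene was among them (2 had an unadjusted p under 0.05, against 6.70% of all genes, and 8, against 17.9%, once the outlying array, which enters only through the spread, was left out). The ER genes had a median of -0.06 (all genes -0.01), with 25 of 39 lower. In the same comparison 19 of 23 enteroendocrine markers (median 3.85), 13 of 14 tuft markers (median 4.48) and 6 of 11 Paneth markers (median 2.25) were called higher, and 0 of 13 goblet markers was called (median 0.03).

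**Figure D4:**
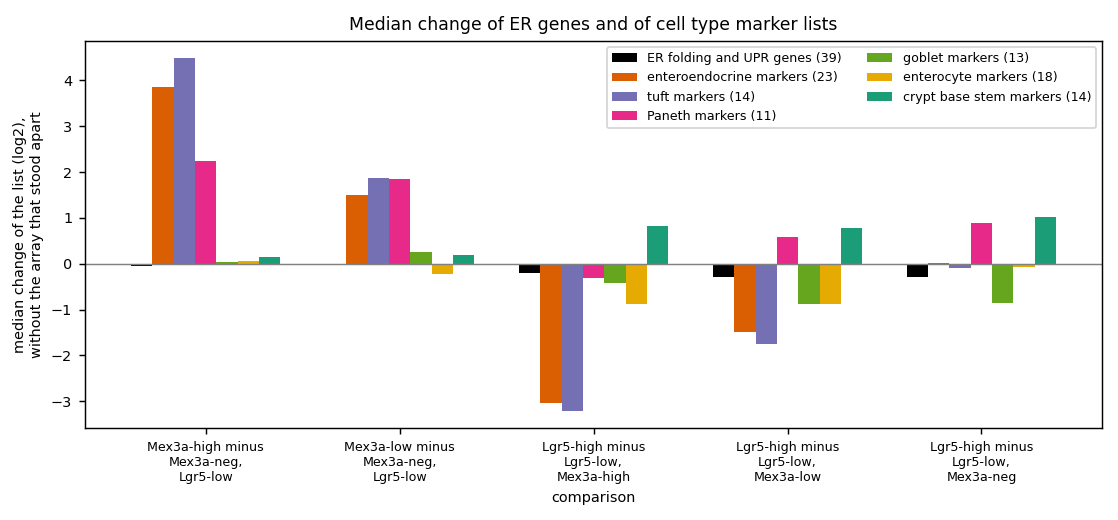
Bars give the median log2 difference of the 39 ER genes (black) and of 6 lists of cell type markers (number measured in the legend) in 5 comparisons, without the outlying array. Enteroendocrine and tuft markers reach medians of 3.85 and 4.48 in Mex3a-high against Mex3a-negative Lgr5-low cells, where the ER genes have -0.06, and the ER genes lie at -0.19 to -0.28 in the 3 comparisons of the Lgr5 gates.

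The ER genes with the smallest p-values in that comparison were Herpud1, Atf6, Ern2 and Dnajb9. Herpud1, an ER membrane protein that helps assemble the degradation complex and a strong UPR target, lay at 10.29 and 10.07 in Mex3a-high, 9.92 and 9.67 in Mex3a-low and 9.69 and 9.40 in Mex3a-negative Lgr5-low cells (MR793 first). Within each replicate the order was the same, high above low above negative. Mex3a-high minus Mex3a-negative was 0.63 ± 0.22 (limma adjusted p 0.408, or 0.0782 without the outlying array). Atf6 lay at 6.52 and 6.04, 5.76 and 5.72, and 5.61 and 5.84, and differed by 0.55 ± 0.20 (adjusted p 0.451, or 0.0944), with 0.90 in MR793 and 0.20 in MR820. Dnajb9 lay at 8.21 and 7.81, 7.75 and 7.50, and 7.42 and 7.15, and differed by 0.72 ± 0.50 (adjusted p 1.00, or 0.174). For Ern2, with the values given above, the difference was 0.40 ± 0.26 (adjusted p 1.00, or 0.153). Each of the 4 was higher in Mex3a-high cells in both replicates. Hspa5 lay the other way, at -0.30 ± 0.21 (adjusted p 1.00), with 10.30 and 10.13 in Mex3a-high against 10.55 and 10.47 in Mex3a-negative cells.

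Mex3a-low against Mex3a-negative Lgr5-low cells gave a median of -0.02 and 0 ER genes called (0.0468% of all genes), and 0 ER genes had an unadjusted p under 0.05 (1.18% of all genes). Ern2 at 0.48 ± 0.26, Pdia5 at 0.46 ± 0.25, Dnajc10 at 0.57 ± 0.42 and Herpud1 at 0.25 ± 0.22 had the smallest p-values, each with a limma adjusted p of 1.00 and each higher in both replicates. Mex3a-high against Mex3a-low Lgr5-low cells gave a median of -0.05 and 0 called (0.889% of all genes), and 1 ER gene had an unadjusted p under 0.05 (4.66% of all genes). There Atf6 differed by 0.54 ± 0.20 (limma adjusted p 0.703), Herpud1 by 0.38 ± 0.22, Pdia5 by -0.44 ± 0.25 and Edem2 by 0.24 ± 0.19 (each 1.00).

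Among Lgr5-high cells no gene of the series was called between Mex3a gates (0% in each of the 3 comparisons), with 2, 0 and 3 of the 39 ER genes at an unadjusted p under 0.05 for Mex3a-high against Mex3a-negative, Mex3a-low against Mex3a-negative and Mex3a-high against Mex3a-low. The shares over all genes were 3.87%, 0.462% and 3.63%. For Mex3a-high against Mex3a-negative the median of the ER genes was -0.33, with -0.66 in MR793 and 0.05 in MR820, and it was 0.04 without the outlying array. The smallest p-values were those of Ern2 (0.72 ± 0.26), Edem2 (0.44 ± 0.19), Calr (0.34 ± 0.17) and Ssr4 (-0.49 ± 0.25), all with a limma adjusted p of 0.505. These became 0.31, 0.17, 0.13 and -0.08 without that array. For Mex3a-high against Mex3a-low the 4 were Calr (0.58 ± 0.17), Ssr4 (-0.61 ± 0.25), Ssr2 (-0.68 ± 0.29) and Ssr1 (-1.01 ± 0.49), all with an adjusted p of 0.554. Without that array they became 0.37, -0.19, -0.13 and 0.01, with adjusted p-values of 0.985 to 0.997, and the median of the ER genes turned from -0.21 to 0.05. Calr was higher in Mex3a-high cells in both replicates, by 0.73 and 0.44.

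Mex3a-low against Mex3a-negative Lgr5-high cells does not use that array for its values. The ER genes had a median of 0.03 there. Edem2 (0.30 ± 0.19), Sec61b (-0.38 ± 0.25), Calr (-0.24 ± 0.17) and Ern2 (0.31 ± 0.26) had the smallest p-values, all with a limma adjusted p of 1.00. Each had the same sign in both replicates.

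Whether the Mex3a-high against Mex3a-negative difference itself differed between the Lgr5 gates was tested as an interaction. No ER gene was called, against 0.398% of all genes, and 1 had an unadjusted p under 0.05 (3.71% of all genes). Dnajb9 had the smallest p, with 1.68 ± 0.70 (limma adjusted p 0.865) and 0.79 (0.606) without the outlying array. It was followed by Herpud1 at 0.59 ± 0.31, Calr at -0.37 ± 0.23 and Atf6 at 0.42 ± 0.28, all with an adjusted p of 0.865. Without that array these 3 became 0.44, -0.16 and 0.26 (0.680 to 0.802). The median of the ER genes was 0.27, with 0.57 in MR793 and -0.07 in MR820, and it turned to -0.12 without that array.

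The replicates differed in some of these genes irrespective of the gates. Over the 5 populations without the Mex3a-high Lgr5-high one, Ddit3 was 0.47 higher in MR793 than in MR820, Dnajb9 0.40 and Atf4 0.32. For Atf4 the 5 arrays of MR793 lay above the 5 of MR820. Sdf2l1 was lower in MR793 by -0.52 and Pdia6 by -0.42, the latter without overlap of the replicates. Creld2 and Pdia5 were lower in MR793 in 5 of 5 populations, by -0.28 and -0.27. In size, the differences named here lay at percentiles 91.1 (Pdia5) to 97.5 (Sdf2l1) among all genes. These genes were picked after their values were seen, and other ER genes lay as low as 6.4 (Ssr3). No share over all genes is at hand for replicates without overlap or for 5 of 5 populations. For Ddit3, Dnajb9, Atf4, Sdf2l1 and Pdia6 the difference between replicates was larger than the one between the Lgr5 gates without the outlying array, and for Creld2 and Pdia5 it was smaller.

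Genes of the same pathways outside the 40 were taken from further lists, counted over the comparison of the Lgr5 gates. Of 25 other folding enzymes and chaperones measured (29 listed), 2 were called lower and 0 higher, with a median of -0.19 (3 called lower and a median of -0.08 without the outlying array). Of all genes, 1.13% were called lower, and 3.30% without that array. Agr2, a disulfide isomerase of goblet cells that is needed for mucin, fell by 1.49 ± 0.20 (limma adjusted p 0.00752). Ero1b, the oxidase that recharges the isomerases and is known from endocrine cells, fell by 0.85 ± 0.12 (adjusted p 0.00739). Agr2 is itself among the goblet markers above. In Mex3a-high against Mex3a-negative Lgr5-low cells Ero1b rose by 1.99 ± 0.20 (adjusted p 0.000656), the only call of this list in that comparison with all arrays. Without the outlying array Calu, a calcium-binding protein of the ER, was also called there, at -0.51 (adjusted p 0.0252).

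In the other lists no gene was called by limma with all arrays, between the Lgr5 gates or in that Mex3a comparison. In the latter, Tusc3 (0.70), Ube2j1 (0.51), Vldlr (0.61) and Bhlha15 (1.23) were called higher without the outlying array, with adjusted p-values of 0.00843 to 0.0283. No share of all genes called there without that array is at hand. With all arrays 1.73% of all genes were called, and without that array 17.9% had an unadjusted limma p under 0.05. Between the Lgr5 gates most members lay lower with all arrays: 24 of 24 genes of COPII transport and cargo receptors (median -0.30), 15 of 15 of ER-associated degradation (-0.22), 11 of 12 of the oligosaccharyltransferase, which adds the sugar to nascent proteins (-0.24), 11 of 12 of signal recognition and translocation (-0.29), and 12 of 14 other UPR regulators (-0.28). Without the outlying array these medians were -0.15, -0.14, -0.10, -0.13 and -0.18. The numbers with a lower mean were then 23, 12, 11, 7 and 10, against 44.9% of all genes (41.8% with all arrays). The numbers called lower were 4, 2, 1, 1 and 2, against 3.30% of all genes. Among those were Surf4 at -0.35 (limma adjusted p 0.00673) and Sec13 at -0.30 (0.0130), which load and coat the vesicles leaving the ER. Tram1, next to the channel, was at -0.43 (0.0116), Ube2j1, a ubiquitin-conjugating enzyme of degradation, at -0.41 (0.0104), and Creb3l1, a transcription factor related to Atf6, at -0.68 (0.0142).

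Lists of other stress programmes were counted in the same way. Of 22 targets of Atf4 and Ddit3, 0 were called with all arrays, 13 were lower and the median was -0.03 (14 lower, a median of -0.09 and 1 called lower without the outlying array). The gene called without that array was Vldlr, at -0.36 (limma adjusted p 0.0261), against 3.30% of all genes called lower. Phgdh and Shmt2, enzymes of serine and glycine metabolism, lay higher in Lgr5-high cells, at 0.57 ± 0.23 (limma adjusted p 0.379) and 0.34 ± 0.15 (0.435). Neither was called. Of 11 cytosolic and mitochondrial heat shock genes, 0 were called, 9 were lower and the median was -0.16, or -0.03 with 7 lower without that array. Whether these lists differ from the ER genes was not tested.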

How the data were processed

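RNA from 12 samples of sorted mouse small intestine cells (2000 cells each, 22 amplification cycles per the labels' protocols) was measured on Affymetrix arrays. The authors deposited 1 log2 value per probe set and array, and the submitters' processing notes name RMA as the method, with version and settings unstated in the sources used here. Columns were joined to samples by name, and values were used as deposited.

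Of 45141 probe sets, 28898 have 1 gene symbol, 551 several and 15692 are not listed in the probe table; 17097 genes remain. Each was fitted with limma 3.58.1 (R 4.3.3) as 6 population means without a block, eBayes with a mean-variance trend, and Benjamini-Hochberg adjustment over 17097 genes (6 residual and 3.44 prior degrees of freedom). The code was tested on simulated data. SE is limma's moderated standard error, and 2 arrays per population limit the precision. The replicates pair the populations: replicate differences correlated over 0.1 in 14 of 15 pairs of populations (-0.115 to 0.566, and 0.374 to 0.566 in the 10 pairs without the outlying array).

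The genes and lists were chosen with earlier results of these data known. Genes given in full are the called members, the 4 with the smallest p where none was called, and 12 central ones (Hspa5, Hsp90b1, Xbp1, Atf4, Ddit3, Ern1, Ern2, Eif2ak3, Atf6, Creld2, Sdf2l1 and Derl3), with up to 4 per further list. Further ER genes and the replicate differences named were chosen after their values were seen. Alternatives were the replicate, the strip or both as blocks, array weights, other scaling, probe set and dim-gene choices, no trend, and leaving out arrays.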

Additional observations from a re-analysis of the deposited data

How the results depend on the processing

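The direction of the ER genes between the Lgr5 gates was steadier than the calls. Their median stayed between -0.48 and -0.16 in all 22 alternatives run. The number called moved from 1 to 2 with the replicate as a block (Manf and Pdia5), to 0 with the strip as a block, with replicate and strip as blocks, and with array weights, and to 6 without both Mex3a-high Lgr5-high arrays, an alternative chosen after seeing the data. Leaving out 1 array in turn gave 0 to 31: 12 when the outlying MR793 array was dropped, 31 when its MR820 counterpart was dropped, and 0 in the other 10 cases. Without that counterpart the Mex3a-high Lgr5-high population rests on the outlying array alone, which is assumed to vary like the others. The same setting gave the upper end elsewhere: 0 to 28 for Mex3a-high against Mex3a-negative, 0 to 27 for Mex3a-high against Mex3a-low (both Lgr5-high), 0 to 30 between the Lgr5 gates in Mex3a-high cells, and 0 to 25 for the interaction. The replicate as a block changed no other call.

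Signs turned for Eif2ak3 (-0.0672) and Derl3 (-0.0195) with the strip as a block, with or without the replicate, for Atf4 (0.193) with averaged probe sets, and for Ssr1 in Mex3a-high against Mex3a-low Lgr5-high cells, which ranged from -2.03 to 0.0098 over the arrays left out in turn, the highest without the outlying array. Ddit3 ranged from -0.0819 to 0.219 over the arrays left out in turn and was -0.0114 without both Mex3a-high Lgr5-high arrays. Without the outlying array the median of the ER genes turned from -0.33 to 0.04 and from -0.21 to 0.05 in Mex3a-high against Mex3a-negative and against Mex3a-low Lgr5-high cells, and from 0.27 to -0.12 in the interaction. The causes were not tested. Dim genes (Pdia3, Eif2ak3, Atf6 and Derl3 lie below the median level) have compressed differences.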
